A study of Mus musculus with 165 samples.

Results

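Expression of 10 genes that encode inflammatory chemokines and cytokines was followed during in vitro macrophage and neutrophil differentiation of PUER cells. The genes were Ccl2, Ccl3, Ccl4, Ccl6 and Ccl9 (CC chemokines), Cxcl2 and Cxcl10 (CXC chemokines), and Tnf, Il1b and Il6 (cytokines). They were taken by symbol from a table of 36255 genes, and 8 of the 10 were expressed highly enough to be tested. Averaged over 25 shared time points, the transcripts of Ccl3, Ccl4, Ccl6, Ccl9, Cxcl2 and Tnf were more abundant in IL3 than in GCSF. Ccl4 was higher in GCSF at 1 of these, and the difference of Tnf was below the threshold from 104h to 168h. Ccl6 and Ccl9 climbed from 16h on in IL3. Ccl3, Cxcl2 and Il1b rose within the 1st hour after OHT and fell by the 2nd in both conditions. The falls of Il1b, and the rise and fall of Ccl3 in IL3, were not called in some fits with a replicate left out.

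PUER cells are a single myeloid progenitor line, derived from Spi1-/- mice, in which PU.1 is present only as a fusion with the part of the estrogen receptor that binds ligand, and this genotype and fusion are common to every group. The fusion protein is activated by 4-hydroxy-tamoxifen (OHT), after which the cells become macrophage-like in IL3 and neutrophil-like if they are first moved to GCSF. Undifferentiated cells in 5 ng/ml IL3 without OHT (3 libraries) were the start of the IL3 course. The IL3-OHT cells received 200 nM OHT in IL3 and were harvested at 27 time points from 1h to 168h (81 libraries). The GCSF 0h cells (3 libraries) had spent 48 h with 10 ng/ml GCSF in place of IL3 and were the start of the GCSF course, and the GCSF-OHT cells then received 100 nM OHT and were harvested at the same 27 time points (78 libraries). OHT dose and cytokine differ together between the courses and cannot be told apart, and neither course had cells of the same age without OHT, so that OHT and time in culture cannot be told apart either. Each time point had its own plate, cells of all time points after 24h were detached with trypsin, and part of the medium was exchanged with fresh OHT at 40h, 88h and 136h. The authors excluded IL3-OHT 96h and 144h from their analyses. These libraries are shown here where they are named and are left out of the 25 time points over which the conditions were compared.

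Libraries held 14600246 to 33147945 reads on genes (median 21960878). Values are normalized counts, that is, reads on a gene divided by the size factor of the library. The smallest count told from 0 was taken as 3 reads, a normalized count of 1.96 to 5.51 depending on the library, which covers counting error only. A gene was called different if its adjusted p was below 0.05 and its log2 difference exceeded 0.58 in either direction, and errors beside log2 differences are standard errors of the fit. All 8 neutrophil markers examined and 7 of 8 monocyte and macrophage markers were detected, while C1qa, a marker of mature macrophages, did not exceed 3 reads in any library. The summed neutrophil markers ran from 205669 to 213985 in undifferentiated cells and from 280846 to 318724 in GCSF 0h cells. Of 8 mast cell and basophil markers, 5 never exceeded 3 reads (Cpa3, Prss34, Fcer1a, Mcpt4 and Tpsb2), and the summed list ran from 217 to 234 in undifferentiated cells against 518 to 638 in GCSF 0h cells. The lymphoid markers Cd3e and Ncr1 never exceeded 3 reads. The part of these cell type markers in the results was not tested. In bulk RNA, fewer cells with a transcript and less transcript per cell cannot be told apart.

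Chemokines are small secreted proteins that draw leukocytes along a gradient, and the position of their first cysteines divides them into CC and CXC families that act through separate receptors. CC chemokines mainly recruit monocytes, macrophages and lymphocytes, whereas CXC chemokines such as Cxcl2 recruit neutrophils through Cxcr2. Tnf and Il1b start the same inflammatory programmes, and their transcripts, like that of Cxcl2, are short-lived and are made within minutes of a stimulus under NF-kB and AP-1 control. Ccl9, Ccl6, Ccl3 and Ccl4 lie in that order on chromosome 11 (GRCm38, GENCODE M21), with 9245 bases between Ccl9 and Ccl6, 54756 between Ccl6 and Ccl3 and 13228 between Ccl3 and Ccl4. Ccl2 lies 1535465 bases before Ccl9. Cxcl2, Cxcl10 and Il6 are on chromosome 5, Tnf on chromosome 17 and Il1b on chromosome 2.

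The 250 bases before the RefSeq start of transcription (GRCm38.p6) are shown for 5 members, with motif matches in capitals and the gene strand read 5′ to 3′. RefSeq promoters were at hand for 8 of the 10 genes. Cxcl2 (chr5:90903649-90903898 on the plus strand) is shown for its 2 matches to the NF-kB motif. Ccl6 (chr11:83593088-83593337 on the minus strand) and Ccl9 (chr11:83578637-83578886 on the minus strand) are shown because they rose together in IL3. Cxcl10 (chr5:92348890-92349139 on the minus strand) is shown as the member that was higher in GCSF, and Tnf (chr17:35202008-35202257 on the minus strand) as the cytokine that rose in both courses.
Cxcl2: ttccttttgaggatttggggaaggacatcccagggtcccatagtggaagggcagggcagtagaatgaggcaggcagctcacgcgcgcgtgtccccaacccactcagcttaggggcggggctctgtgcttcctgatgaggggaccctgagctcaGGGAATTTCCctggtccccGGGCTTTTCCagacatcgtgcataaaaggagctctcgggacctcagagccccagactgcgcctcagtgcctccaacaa
Ccl6: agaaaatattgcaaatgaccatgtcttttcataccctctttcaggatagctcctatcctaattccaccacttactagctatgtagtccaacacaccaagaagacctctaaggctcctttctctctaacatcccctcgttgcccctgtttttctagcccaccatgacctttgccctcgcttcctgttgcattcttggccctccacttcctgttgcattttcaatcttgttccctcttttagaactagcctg
Ccl9: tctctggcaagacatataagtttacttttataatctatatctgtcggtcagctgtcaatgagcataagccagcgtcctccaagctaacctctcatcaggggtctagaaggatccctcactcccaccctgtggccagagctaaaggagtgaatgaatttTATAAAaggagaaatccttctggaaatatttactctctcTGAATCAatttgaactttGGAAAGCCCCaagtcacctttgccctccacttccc
Cxcl10: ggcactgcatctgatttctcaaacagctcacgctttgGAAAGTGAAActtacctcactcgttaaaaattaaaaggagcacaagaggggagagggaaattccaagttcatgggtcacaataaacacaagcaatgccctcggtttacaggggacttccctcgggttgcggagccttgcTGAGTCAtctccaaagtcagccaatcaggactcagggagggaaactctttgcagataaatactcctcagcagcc
Tnf: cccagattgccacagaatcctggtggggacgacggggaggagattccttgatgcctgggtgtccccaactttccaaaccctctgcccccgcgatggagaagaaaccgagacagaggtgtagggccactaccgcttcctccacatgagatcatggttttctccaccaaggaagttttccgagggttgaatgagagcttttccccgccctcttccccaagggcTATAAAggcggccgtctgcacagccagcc

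Motifs were searched on both strands, except TATAAA, as GGG, 2 bases of any kind and TTTCC for NF-kB (found in 1.61% of 32544 promoters of the same 300 bases), TGANTCA for AP-1 (7.79%), TTGCNNAA for C/EBP (10.8%), GAGGAAGT for PU.1 (3.11%), GAAA, 2 bases of any kind and GAAA for the interferon response element (3.45%), GCGNGGGCG for EGR (5.60%) and TATAAA (8.28%). The NF-kB matches of Cxcl2 began 97 and 78 bases before the start, and those of Ccl9 and Il6 began 35 and 44 bases before it. Ccl9 also held an AP-1 match and a TATAAA, Cxcl10 an interferon response element match and an AP-1 match, Il6 an AP-1 and a C/EBP match, and Tnf and Il1b a TATAAA. No match lay in the windows of Ccl3 and Ccl6, and the PU.1 motif as spelled was in none of the 8, which says only that these letters are not there. No matches overlapped each other. Among 28 pairs of these promoters, Ccl6 and Ccl9 shared the most, with 41 of 60 bases identical in their best ungapped alignment around the start, against at most 32 of 60 in any other pair. A match is a description of the letters and not a sign of binding.

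AU-rich elements in a 3′ UTR mark transcripts for rapid decay. The nonamer TTATTTATT was found in the 3′ UTR of Cxcl2 (4 times) and Tnf (5 times) and in none of the other 8 members, against 7.58% of 20945 mouse genes that hold it at least once. The first nonamer of each is shown in capitals within its surroundings, in Cxcl2 at chr5:90905316-90905344 on the plus strand and in Tnf at chr17:35199689-35199717 on the minus strand (GRCm38, GENCODE M21).
Cxcl2: gagagttcacTTATTTATTtatctatgta
Tnf: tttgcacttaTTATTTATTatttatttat

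Ccl2, a monocyte chemoattractant, and Il6, a cytokine of the acute phase, had 0 to 3 reads in every library and are not considered further. Counted per 1000 bases of the longest coding transcript in GENCODE, Ccl3 was the most abundant member in undifferentiated cells. It had 3339 ± 151 normalized counts (SD, n = 3), followed by Ccl6 with 2770 ± 78.04. Ccl4 had 911 ± 22.3 and Ccl9 467 ± 28.1 per 1000 bases, and these 4 levels lay apart by more than their spread between libraries. That spread does not cover the choice of transcript, which for Ccl9 was 3006 bases long, so the order depends on it. Cxcl2 at 190.8 ± 13.2 and Tnf at 152 ± 9.04 came next, Cxcl10 had 17.2 ± 4.92 and Il1b only 3.45 ± 0.422. At IL3-OHT 168h the order was led by Ccl6 at 17626 ± 340 per 1000 bases, over Ccl3 at 3443 ± 235.

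The change before OHT was examined in GCSF 0h against undifferentiated cells. In this comparison the added GCSF, the removal of IL3, the washing and the 48 h of culture cannot be told apart. Transcripts of Cxcl2 and of the CC chemokines were several-fold lower after 48 h of GCSF, Tnf fell less, and Cxcl10, an interferon-inducible ligand of Cxcr3, did not pass the test. Cxcl2, the neutrophil attractant, had normalized counts of 338, 344 and 383 in undifferentiated cells and 12.9, 12.4 and 14.9 in GCSF 0h cells, a 24.7-fold decrease (log2 difference -4.63 ± 0.17, adjusted p = 1.90e-49). No GCSF 0h library came near any undifferentiated one. Ccl3, a ligand of Ccr1, had 2678, 2546 and 2449 in undifferentiated cells and 437, 368 and 390.5 in GCSF 0h cells, 6.41-fold lower (log2 difference -2.68 ± 0.094, adjusted p = 3.65e-52). Ccl4, its neighbour and likewise a CC chemokine, had 587, 617 and 599 against 115.5, 99.2 and 108.1, 5.55-fold lower (log2 difference -2.47 ± 0.14, adjusted p = 4.40e-34). In both genes every GCSF 0h library was below every undifferentiated one. Ccl6, a ligand of Ccr1 that myeloid cells make constitutively, had 4079.8, 4023 and 3863 against 896, 938 and 970.2, 4.26-fold lower (log2 difference -2.09 ± 0.070, adjusted p = 2.64e-54). Ccl9, likewise a ligand of Ccr1, had 1319, 1408 and 1488 against 351, 279.8 and 314, 4.46-fold lower (log2 difference -2.16 ± 0.088, adjusted p = 7.84e-46). All 4 of these neighbours on chromosome 11 were separated between the groups without overlap, by folds between 4.26 and 6.41. The share of all genes separated without overlap was not computed. Tnf had 266, 241 and 239 in undifferentiated cells and 109.05, 115.98 and 99.7 in GCSF 0h cells, 2.29-fold lower (log2 difference -1.19 ± 0.10, adjusted p = 4.71e-20). Cxcl10 had 15.7, 25.6 and 28.4 against 16.6, 20.4 and 25.2, and these values overlap (log2 difference -0.13 ± 0.38, adjusted p = 0.801).

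Il1b was near the limit of detection before OHT, with 4 reads in each undifferentiated library and 2, 2 and 0 in the GCSF 0h libraries. It passed the threshold (adjusted p = 0.0337), but not without replicate 1, without replicate 3, without a filter, or with edgeR or DESeq2 (adjusted p from 0.0533 to 0.272). In all, 7 of the 8 tested members were lower after GCSF and none was higher. Of all 17439 genes tested, 20.6% were lower and 13.0% higher.

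**Figure D1:**
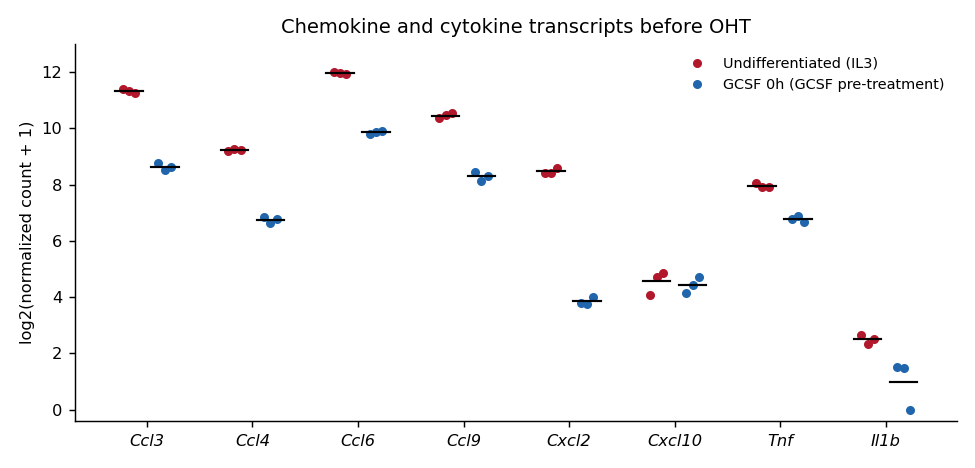
Normalized counts before OHT as log2(normalized count + 1), one point per library, for undifferentiated cells (red, n = 3) and GCSF 0h cells (blue, n = 3), with black bars at the means. The 3 blue points lie below the 3 red ones in every gene but Cxcl10, and the gap is widest for Cxcl2.

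Changes soon after OHT were examined between consecutive time points. No cells without OHT were harvested at 1h, and each time point had its own plate. OHT, the handling and the plate therefore cannot be told apart in these steps. Ccl3, Cxcl2 and Il1b rose from 0h to 1h in both conditions, and together with Ccl4 they fell from 1h to 2h in both. Il1b, which encodes the precursor of interleukin-1β, went from 5.23, 4.09 and 4.73 in undifferentiated cells to 39.5, 40.2 and 35.1 at IL3-OHT 1h and back to 8.39, 16.5 and 10.7 at 2h. In GCSF it went from 1.85, 1.77 and 0 to 11.3, 20.8 and 11.5 and back to 6.08, 2.36 and 2.43. The rises were past the threshold (adjusted p = 3.37e-04 in IL3 and 1.07e-04 in GCSF), and 1h was the highest time point of either course. The falls from 1h to 2h were called as well (adjusted p = 0.0268 and 0.0258) but rest on few reads. The one in IL3 was lost without replicate 1, 2 or 3 (adjusted p = 0.154, 0.0558 and 0.0763) and the one in GCSF without replicate 2 or 3 (adjusted p = 0.269 and 0.0982).

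Cxcl2 rose from 338, 344 and 383 to 585, 725 and 663 at IL3-OHT 1h (log2 difference 0.89 ± 0.17, adjusted p = 2.93e-05) and fell to 416, 448 and 388 at 2h (log2 difference -0.65 ± 0.17, adjusted p = 0.00109). In GCSF it rose from 12.9, 12.4 and 14.9 to 59.8, 70.8 and 68.2 (log2 difference 2.22 ± 0.17, adjusted p = 9.06e-22) and fell to 34.4, 37.8 and 40.5 (log2 difference -0.80 ± 0.17, adjusted p = 1.17e-04). All GCSF-OHT libraries at 1h lay above the GCSF 0h ones and far below those of IL3. Ccl3 rose to 3896, 3829.5 and 3989.6 at IL3-OHT 1h (log2 difference 0.61 ± 0.094, adjusted p = 9.88e-08) and to 1327, 1467 and 1551 at GCSF-OHT 1h (log2 difference 1.86 ± 0.094, adjusted p = 3.78e-36). The rise of Ccl3 in IL3 was just over the fold limit and was not called without replicate 3 (log2 difference 0.56), nor were the falls of Ccl3 and Ccl4 that followed it in IL3 (-0.57 and -0.52). Ccl4 went to 811, 731 and 809 at IL3-OHT 1h, which was not past the threshold (log2 difference 0.38 ± 0.14, adjusted p = 0.0382), and to 398, 344 and 407 at GCSF-OHT 1h (log2 difference 1.82 ± 0.14, adjusted p = 7.79e-23). Ccl9 and Tnf also rose in the 1st hour in GCSF, Ccl9 from 351, 279.8 and 314 to 466, 497 and 518 (log2 difference 0.65 ± 0.088, adjusted p = 8.47e-10; 0.56 and under the fold limit without replicate 2) and Tnf from 109.05, 115.98 and 99.7 to 183.5, 193.5 and 191.4 (log2 difference 0.80 ± 0.10, adjusted p = 1.12e-10). The step from 0h to 1h was called higher for 6 of 8 members in GCSF and 3 of 8 in IL3, against 4.02% and 2.80% of all genes tested. The step from 1h to 2h was called lower for 4 of 8 in each, against 2.32% in GCSF and 8.83% in IL3. The conditions were compared not at 1h alone but over 1h to 8h, where the change of Ccl3, Ccl4 and Cxcl2 from their start was higher in GCSF than in IL3 by 1.70 ± 0.10, 1.83 ± 0.15 and 1.14 ± 0.19 on the log2 scale (adjusted p = 1.21e-29, 2.62e-20 and 3.34e-07).

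Tnf followed a later course in IL3. It had 316, 288 and 248 at IL3-OHT 2h, 628, 642 and 653 at 3h (log2 difference 1.18 ± 0.10, adjusted p = 1.09e-18) and 747, 789 and 845 at 4h, and fell from 8h to 12h (log2 difference -0.68 ± 0.10, adjusted p = 2.58e-08). In GCSF the same hours showed no such rise, the libraries having 124.6, 140.8 and 119.1 at 2h, then 152.3, 133.8 and 99.3 at 3h (log2 difference -0.01 ± 0.10, adjusted p = 0.981), then 102.8, 119.9 and 92.1 at 4h. All 3 IL3 libraries were above all 3 GCSF libraries at each of these time points. Over the window from 1h to 8h the change of Tnf from its start was smaller in GCSF than in IL3, by 0.71 ± 0.11 on the log2 scale (adjusted p = 1.03e-07), opposite in sign to Ccl3, Ccl4 and Cxcl2.

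Ccl3 and Ccl4 fell further between 4h and 12h. Ccl3 fell by 0.79 from IL3-OHT 4h to 8h (adjusted p = 3.26e-12) and by 0.60 in GCSF (adjusted p = 8.77e-08) on the log2 scale. Ccl4 fell over the same step in IL3 (log2 difference -0.92 ± 0.14, adjusted p = 1.09e-08) and from 8h to 12h in GCSF (log2 difference -0.59 ± 0.14, adjusted p = 7.55e-04), the last one not without replicate 3 (-0.55). Ccl3 reached its lowest mean at 24h in both, 793 ± 34.4 in IL3 and 386 ± 17.5 in GCSF (SD, n = 3). Ccl4 in IL3 was lower than in undifferentiated cells at 21 of the 25 time points tested and higher at none. Ccl4 in GCSF, which started lower, was above GCSF 0h at 6 of 27 time points, all from 1h to 12h, and below it at 2, 72h and 80h. Over 4 windows of time, 1h to 8h, 12h to 48h, 56h to 88h and 104h to 168h, the log2 difference of GCSF-OHT Ccl3 against GCSF 0h was 1.41, 0.45, 0.53 and 1.40. In IL3 Ccl3 stood in the same windows at -0.29, -1.17, -0.90 and -0.31 relative to undifferentiated cells. Ccl3 was thus lowest in the middle windows in both courses.

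Ccl6 and Ccl9 behaved differently from Ccl3 and Ccl4. In IL3 neither was called at any time point up to 12h, and then both climbed, Ccl6 from 4079.8, 4023 and 3863 in undifferentiated cells to 11060.2, 10896 and 11315 at 24h and 20390.3, 22274 and 21742 at 48h. Its highest mean was 28417 ± 1547 at IL3-OHT 104h (SD, n = 3), and the only single step past the threshold was that from 12h to 16h (log2 difference 0.67 ± 0.070, adjusted p = 2.55e-13). Ccl9 rose from 1319, 1408 and 1488 to 3131, 3331 and 3213 at 24h, and to its highest mean of 6534 ± 302 at 120h. The libraries of 120h, in both conditions, bear names of another series than those of every other time point. What this stands for is not given in the sources used here. Ccl6 and Ccl9 were both called higher than in undifferentiated cells at 19 of 25 time points, every one from 16h on. In GCSF, Ccl6 was called above GCSF 0h at 19 of 27 time points, the first of them 8h, and rose from 896, 938 and 970.2 to 1943, 1737 and 1913 at 24h and 2284, 2566 and 2683 at 168h, while Ccl9 had 524, 465 and 406 at 24h and 452, 458 and 443 at 168h. Ccl9 in GCSF was called above GCSF 0h at 11 of 27 time points, 8 of them up to 20h and 3 between 32h and 48h, and at none after 48h. The interaction of OHT with condition was negative for both from 104h to 168h, -1.88 ± 0.075 for Ccl6 and -2.03 ± 0.094 for Ccl9 (adjusted p = 6.57e-47 and 1.43e-40), their change from the start being smaller in GCSF. From 1h to 8h it was under the fold limit (0.37 and 0.40).

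**Figure D2:**
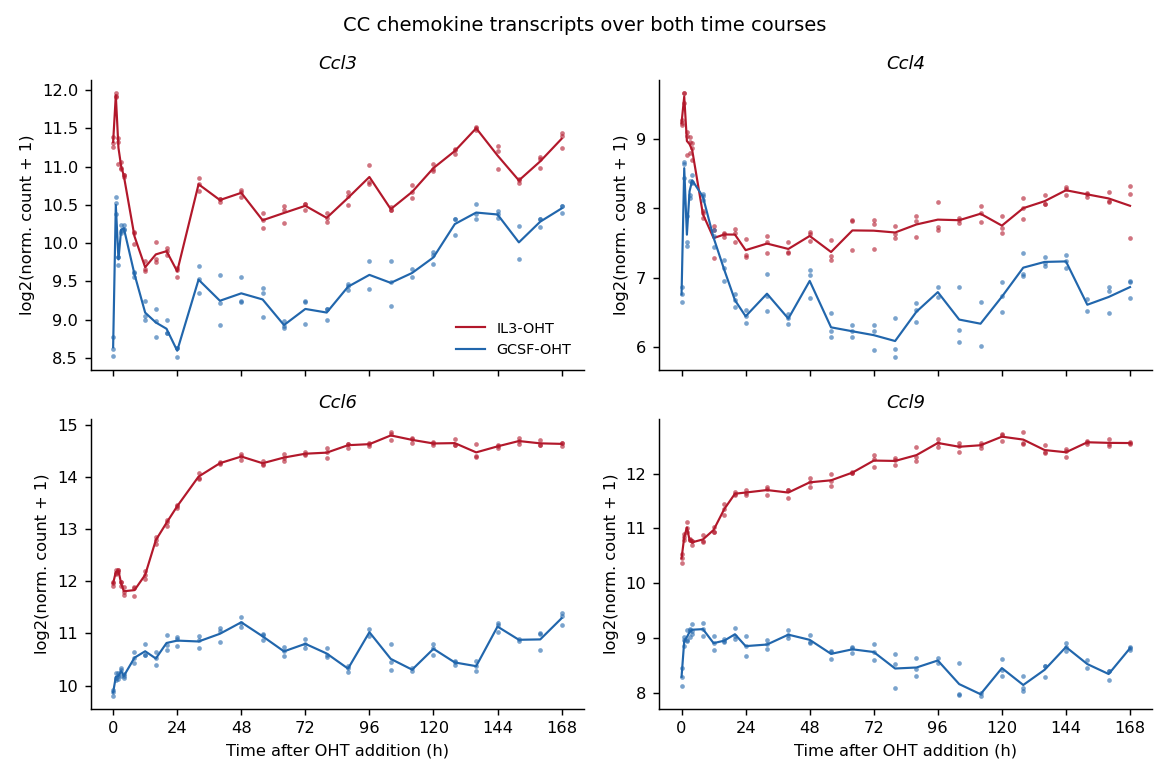
CC chemokine transcripts against time after OHT (h) as log2(normalized count + 1), for IL3-OHT (red) and GCSF-OHT (blue), each with its start at 0h, one point per library and lines through the means. Ccl3 and Ccl4 peak at 1h and fall to 24h in both conditions, while Ccl6 and Ccl9 climb from 12h on in IL3 and stay lower in GCSF. IL3-OHT 96h and 144h are drawn.

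The time point of 32h, the 1st at which trypsin was used, stood out in both conditions. From 24h to 32h, Ccl3, Tnf and Cxcl2 were called higher in IL3 and in GCSF, 3 of 8 members each time, against 0.338% of all genes tested called higher in IL3 and 0.161% in GCSF. Ccl3 went from 805, 819 and 754 to 1642, 1854 and 1743 in IL3 (log2 difference 1.14 ± 0.094, adjusted p = 5.47e-19) and from 365, 395 and 396 to 736, 828 and 649.9 in GCSF (log2 difference 0.93 ± 0.094, adjusted p = 1.06e-13). Cxcl2 went from 162.3, 200.1 and 210.2 to 313, 415 and 364 in IL3 (log2 difference 0.93 ± 0.17, adjusted p = 1.41e-04) and from 24.2, 20.5 and 11.6 to 35.7, 39 and 37.4 in GCSF (log2 difference 1.01 ± 0.17, adjusted p = 4.21e-05). Tnf went from 411, 343 and 384 to 636, 604 and 622 in IL3 (log2 difference 0.71 ± 0.10, adjusted p = 1.83e-07) and from 161.9, 164.4 and 176.2 to 262, 272 and 234 in GCSF (log2 difference 0.61 ± 0.10, adjusted p = 3.68e-05). In each of these 3 genes and both conditions all 32h libraries were above all 24h libraries. The calls of Cxcl2 were lost without replicate 2 in IL3 (adjusted p = 0.0796) and without replicate 3 in GCSF (adjusted p = 0.0501), and that of Tnf in GCSF without replicate 1 or 2 (log2 differences 0.57 and 0.55). In a fit of the 2 groups compared alone, only Ccl3 in IL3 kept its call (adjusted p of the others from 0.0524 to 0.290). Ccl4 had 156.7, 160.2 and 188.01 at IL3-OHT 24h and 163.7, 182.6 and 192.6 at 32h, and 80.2, 86.4 and 92.2 and 91.1, 105.4 and 131.95 in GCSF, and was not called. The ratio of Ccl3 to Ccl4 within a library ranged from 4.01 to 5.14 at IL3-OHT 24h and from 9.05 to 10.1 at 32h. In GCSF it ranged from 4.3 to 4.57 at 24h and from 4.93 to 8.07 at 32h. The libraries of 24h and 32h thus did not overlap in either condition. Other time points in GCSF did overlap with these, 20h (4.18 to 5.39) with 32h and 48h (4.39 to 5.78) with 24h. Trypsin and the hours from 24h to 32h cannot be told apart in this design. Over the 9 time points from 1h to 24h, before any trypsin, Ccl3, Ccl4, Ccl6, Ccl9, Cxcl2 and Tnf were lower in GCSF-OHT than in IL3-OHT as they were over all 25, and Il1b was lower as well (-1.30, adjusted p = 2.03e-08).

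**Figure D3:**
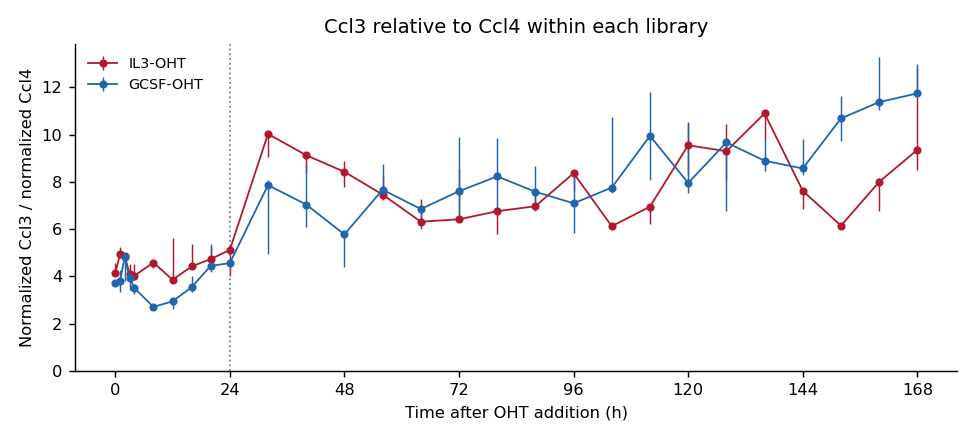
Ratio of the normalized counts of Ccl3 and Ccl4 within each library against time after OHT (h) for IL3-OHT (red) and GCSF-OHT (blue) with their starts at 0h; points are medians and bars span the lowest and highest library (n = 3, or 2 at GCSF-OHT 96h, 112h and 152h). The ratio in IL3 lies under 6 in every library up to 24h (dotted line, the last time point without trypsin) and above 9 in all 3 libraries at 32h.

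Cxcl2, Tnf and Il1b also changed at the time points that followed medium renewal. Between 88h and 96h in IL3, Cxcl2 went from 242, 297 and 255 to 723, 693 and 801 (log2 difference 1.48 ± 0.17, adjusted p = 7.12e-13), and between 136h and 144h from 394, 374 and 396 to 1400.1, 1143 and 959 (log2 difference 1.57 ± 0.17, adjusted p = 3.66e-14). Tnf went from 753, 779 and 667 to 1269, 1215 and 1433 (log2 difference 0.83 ± 0.10, adjusted p = 7.54e-12) and from 603, 468 and 561 to 1147, 1131 and 1153 (log2 difference 1.08 ± 0.10, adjusted p = 2.36e-17). Both were higher in all libraries after renewal than in all before it. Both fell again at the next time point, Cxcl2 by 0.62 and 0.95 and Tnf by 1.01 and 0.88 on the log2 scale (adjusted p = 0.00201, 3.16e-06, 1.43e-15 and 2.92e-12). The first of these falls of Cxcl2 was under the fold limit without replicate 3 (log2 difference -0.56). Il1b was called higher at both steps, on 5, 6 and 4 reads at 96h against 3, 0 and 1 at 88h, and on 6, 11 and 2 reads at 144h against 1, 0 and 2 at 136h. Both calls were lost without replicate 2 (adjusted p = 0.375 and 0.382), the first also without replicate 3 (adjusted p = 0.0556) and the second without replicate 1 (adjusted p = 0.0541). At each of these steps 3 of 8 members were called, all of them higher. Of all 17439 genes tested, 20.0% and 25.8% were called in either direction, among them 1875 and 2437 genes called higher. After the renewal at 40h in IL3, Cxcl2 alone among the members was called, with 277, 299 and 279.5 at 40h and 396, 472 and 478 at 48h (log2 difference 0.65 ± 0.17, adjusted p = 0.0107), and the call was lost without replicate 2 or 3 (adjusted p = 0.225 and 0.0542). Of all genes, 0.224% were called higher at this step.

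In GCSF, Ccl6 and Cxcl2 were called higher after the renewals at 88h and 136h, and after that at 40h 0 of 8 members were called (0.849% of all genes). Ccl6 went from 1297, 1230.4 and 1323 at 88h to 1982 and 2186 at 96h (log2 difference 0.70 ± 0.078, adjusted p = 2.73e-12), where only 2 libraries were sequenced, and from 1239.6, 1411 and 1332 at 136h to 2093, 2367 and 2277 at 144h (log2 difference 0.76 ± 0.070, adjusted p = 1.60e-16). Cxcl2 went from 48.6, 48.5 and 37 to 92 and 85.3 (log2 difference 0.98 ± 0.19, adjusted p = 3.30e-05) and from 81.8, 87.5 and 108.7 to 157.1, 150.3 and 162.3 (log2 difference 0.76 ± 0.17, adjusted p = 5.10e-04). Tnf was not called at either step, with 373, 377 and 339 before and 406 and 366 after the renewal at 88h, and 525, 480.3 and 471 before and 531, 501 and 517 after that at 136h. Cxcl10 was called higher at 96h (log2 difference 1.25 ± 0.43, adjusted p = 0.0246), which was lost without replicate 2 or 3 (adjusted p = 0.0848 and 0.0859), and Il1b at 144h (adjusted p = 0.0417), lost without any 1 of the 3 replicates. Of all genes, 1.14% and 1.39% were called higher at these steps in GCSF, beside 3 of 8 members each time. Calls of Cxcl2 in GCSF were not limited to renewal. Without one, Cxcl2 was called higher at 80h than at 72h and at 120h than at 112h. It was called lower at 64h than at 56h. The 80h call was lost without replicate 2 or 3, and the 64h call without any 1 of the 3 replicates. The 120h call was lost in a fit of only the groups compared (adjusted p = 0.127). Whether the response to renewal differed between the conditions was not tested. Renewal, the fresh OHT and the 8h that passed cannot be told apart.

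**Figure D4:**
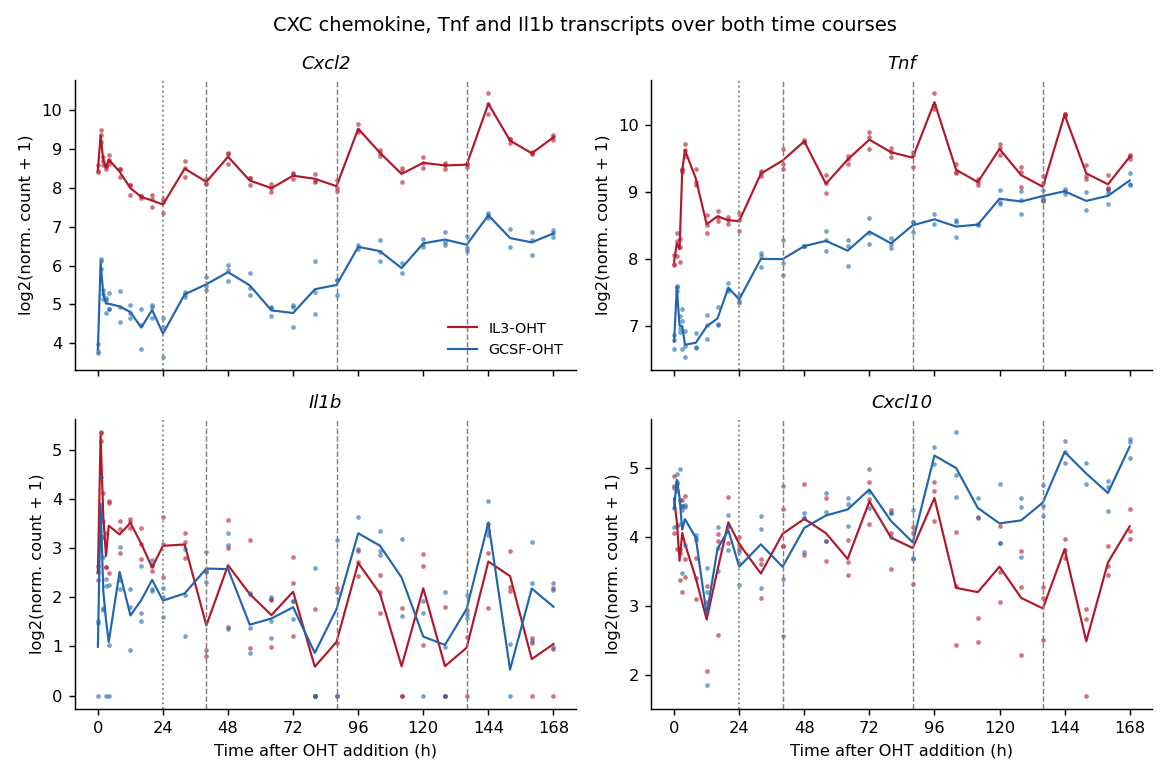
Cxcl2, Tnf, Il1b and Cxcl10 against time after OHT (h) as log2(normalized count + 1), for IL3-OHT (red) and GCSF-OHT (blue), one point per library and lines through the means; dashed lines mark medium renewal at 40h, 88h and 136h and the dotted line 24h. Cxcl2 and Tnf peak in IL3 at 96h and 144h, the time points the authors excluded, Tnf climbs in GCSF, and Il1b is at 0 in many libraries.

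Over the whole courses, all 8 tested members changed in IL3 and all 8 in GCSF, against 69.7% and 47.5% of all genes tested. Tnf was called above its start at 22 of 25 time points in IL3 and 21 of 27 in GCSF, and below it at none. Cxcl2 was above GCSF 0h at 25 of 27 time points in GCSF, but in IL3 above undifferentiated cells at 3 of the 25 tested (1h, 152h and 168h) and below them at 3 (16h, 20h and 24h). Its highest IL3 time points, 96h and 144h, are not among those 25. Cxcl10 never exceeded 67 reads in a library. It was below undifferentiated cells at 12 of 25 time points in IL3, with its lowest mean of 5.01 ± 2.41 at 152h, whereas in GCSF it was called lower only at 12h and higher only at 168h. Il1b had more than 3 reads in 48 of 84 libraries of the IL3 course and 39 of 81 of the GCSF course, start libraries included.

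At the end of the courses, IL3-OHT 168h cells had more Ccl6, Ccl9, Tnf and Cxcl2 transcript than undifferentiated cells and less Ccl4. Ccl6 was 6.36-fold and Ccl9 4.29-fold higher (log2 difference 2.67 ± 0.070, adjusted p = 6.77e-65, and log2 difference 2.10 ± 0.088, adjusted p = 1.97e-44). Tnf was 2.97-fold higher, with 722, 752 and 741 (log2 difference 1.57 ± 0.10, adjusted p = 7.25e-28), and Cxcl2 1.78-fold, with 602, 658 and 640.01 (log2 difference 0.84 ± 0.17, adjusted p = 1.73e-05). Ccl4 was 2.29-fold lower, with 190.02, 319 and 296 (log2 difference -1.20 ± 0.14, adjusted p = 2.26e-13), and Ccl3, with 2432, 2712 and 2768, was not called (log2 difference 0.04 ± 0.094, adjusted p = 0.743). The 6 calls, 4 higher and 2 lower, stand against 10.2% of all genes higher and 15.1% lower. The second lower call was Il1b, with 3, 0 and 1 reads (adjusted p = 0.0462), and it was lost in 7 alternatives, among them without replicate 2 and without replicate 3.

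GCSF-OHT 168h cells had more Cxcl2, Tnf, Ccl3, Ccl6 and Cxcl10 than GCSF 0h cells, and no member was lower. Cxcl2 was 7.92-fold higher, with 105.3, 119.97 and 113.8 (log2 difference 2.99 ± 0.17, adjusted p = 3.80e-32), and Tnf 5.3-fold, with 553, 559 and 622 (log2 difference 2.41 ± 0.10, adjusted p = 8.65e-44). Ccl3 was 3.52-fold higher, with 1432, 1427 and 1345 (log2 difference 1.81 ± 0.094, adjusted p = 3.05e-36), and Ccl6 2.68-fold (log2 difference 1.42 ± 0.070, adjusted p = 2.65e-38). Cxcl10 was higher at 40.3, 41.7 and 34.2 (adjusted p = 0.0458), a call lost without replicate 1 or 2 (adjusted p = 0.224 and 0.144). Ccl4 returned to 121.99, 122.6 and 103.5 (log2 difference 0.11 ± 0.14, adjusted p = 0.569), and Ccl9 was just under the fold limit (log2 difference 0.52 ± 0.088, adjusted p = 1.64e-07) and over it without replicate 1 (0.60). Of all genes, 12.1% were higher and 12.6% lower. The median log2 difference was 1.15 over the 8 tested members and 0 over all genes. Cxcl2 at GCSF-OHT 168h was 5.57-fold under IL3-OHT 168h (log2 difference -2.48 ± 0.17, adjusted p = 5.26e-26).

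Against undifferentiated cells, which are also the reference of IL3-OHT 168h, GCSF-OHT 168h cells still had less of 5 of the 8 tested members and more of 1. Ccl4 was 5.16-fold lower (log2 difference -2.37 ± 0.14, adjusted p = 1.26e-32), Ccl9 3.11-fold (log2 difference -1.64 ± 0.088, adjusted p = 3.35e-35) and Cxcl2 3.12-fold (log2 difference -1.64 ± 0.17, adjusted p = 2.74e-15). Ccl3 and Ccl6 were lower by less, 1.82-fold and 1.59-fold (log2 difference -0.87 ± 0.094, adjusted p = 1.05e-14, and log2 difference -0.67 ± 0.070, adjusted p = 1.44e-15). Tnf was 2.32-fold higher (log2 difference 1.21 ± 0.10, adjusted p = 1.35e-20). Cxcl10 and Il1b were not called (adjusted p = 0.0811 and 0.35), although edgeR called Cxcl10 higher (adjusted p = 0.0444). Of all genes, 23.5% were lower and 15.5% higher.

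Between the conditions, over the 25 shared time points, 6 members were lower in GCSF and 1 was higher, against 15.1% and 9.33% of all genes. The median log2 difference was -1.10 over the tested members and -0.06 over all genes. Ccl9 was 8.68-fold lower in GCSF (log2 difference -3.12 ± 0.018, adjusted p = 4.49e-140), Ccl6 8.56-fold (log2 difference -3.10 ± 0.014, adjusted p = 5.10e-151) and Cxcl2 7.38-fold (log2 difference -2.88 ± 0.035, adjusted p = 2.04e-103). Tnf was 2.22-fold lower (log2 difference -1.15 ± 0.021, adjusted p = 3.41e-84), Ccl3 2.07-fold (log2 difference -1.05 ± 0.019, adjusted p = 2.69e-84) and Ccl4 1.99-fold (log2 difference -0.99 ± 0.028, adjusted p = 5.81e-64). For Ccl3, Ccl6, Ccl9 and Cxcl2, all GCSF libraries were below all IL3 libraries at 25 of 25 time points. For Tnf this held at 24, with overlap at 1. For Ccl4 it held at 23, the libraries overlapped at 12h, and at 8h all GCSF libraries (296, 288 and 277) were above all IL3 libraries (243, 232 and 248). How many of all genes were separated in this way was not computed, so these counts only describe the members. Cxcl10 was 1.5-fold higher in GCSF (log2 difference 0.58 ± 0.078, adjusted p = 2.59e-11), only just over the fold limit. It was under that limit without replicate 2 or 3 (log2 differences 0.54 and 0.56) and over the 9 time points up to 24h (0.27). Il1b was not called (log2 difference -0.34 ± 0.13, adjusted p = 0.0125). The summed neutrophil markers had a median of 522049 over GCSF-OHT libraries (265664 to 702861) and 205963 over IL3-OHT libraries (132163 to 314173), the mast cell and basophil markers 567 (395 to 952) and 137.3 (51.5 to 241), and the monocyte and macrophage markers 19598 (16265 to 26487) and 26237 (15305 to 34794). Their part in these differences was not tested.

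These differences changed with time, and not in the same direction for all members. For Ccl6 the log2 difference between GCSF-OHT and IL3-OHT was -1.72 ± 0.031 in the window of 1h to 8h and -3.98 ± 0.026 in that of 104h to 168h, and for Ccl9 -1.76 ± 0.040 and -4.19 ± 0.032. For Cxcl2 it went the other way, from -3.49 ± 0.078 to -2.29 ± 0.063, and for Tnf from -1.90 ± 0.046 to -0.46 ± 0.038, which is under the fold limit. Cxcl10 had 0.50 ± 0.17 in the first window and 1.35 ± 0.14 in the last (adjusted p = 3.65e-16). Ccl3 kept between -1.25 and -0.97 in all 4 windows. The windows were not tested against each other. The interaction, in which each condition is taken against its own start, was called for 4 of 8 members from 1h to 8h, 3 in the second window, 5 in the third and all 8 in the last and at 168h, against 9.97%, 25.5%, 24.3%, 27.1% and 25.7% of all genes.

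**Figure D5:**
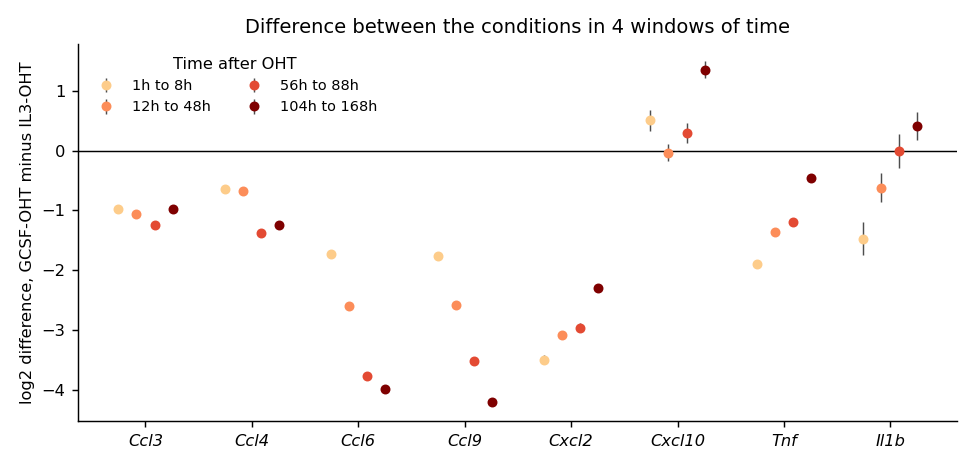
The log2 difference of GCSF-OHT minus IL3-OHT for the 8 tested members in 4 windows of time after OHT (h), with standard errors of the fit as bars, most of them smaller than the points. Ccl6 and Ccl9 move down to -3.98 and -4.19, whereas Cxcl2 and Tnf move up to -2.29 and -0.46 and Cxcl10 ends at 1.35.

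Other genes of the same pathways were examined as lists. Of 21 other chemokines 11 were tested, and over the shared time points 2 were higher in GCSF and 2 lower, against 9.33% and 15.1% of all genes. The largest difference was that of Cxcl3, a neutrophil attractant closely related to Cxcl2, with mean normalized counts of 494 in IL3-OHT and 23.8 in GCSF-OHT (log2 difference -4.23 ± 0.050, adjusted p = 6.04e-105). Cxcl2 and Cxcl3 share 4.37% of the 31-base stretches of the Cxcl2 transcript, so that a small part of their reads could be assigned to either. The ratio of Cxcl2 to Cxcl3 was 0.391 to 0.446 in undifferentiated libraries and 0.81 to 0.878 at IL3-OHT 168h, but 3.57 to 5.12 at GCSF-OHT 168h. Cxcl3 had 27.5 ± 9.64 at GCSF 0h and 27.7 ± 4.79 at GCSF-OHT 168h (SD, n = 3), the interval over which Cxcl2 rose.

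Of 23 other cytokines 16 were tested, and 6 were lower and 2 higher in GCSF-OHT, against 15.1% and 9.33% of all genes. The lower ones included Il1rn, the antagonist of the interleukin-1 receptor (912 in IL3-OHT and 200.1 in GCSF-OHT, log2 difference -2.17 ± 0.021, adjusted p = 4.91e-114), Osm, encoding oncostatin M (log2 difference -1.77 ± 0.027, adjusted p = 2.34e-93), and Lif (log2 difference -1.43 ± 0.075, adjusted p = 3.90e-37). Csf1, the macrophage growth factor, was among the higher ones (log2 difference 1.41 ± 0.044, adjusted p = 2.57e-59). Among interferon-stimulated genes, to which Cxcl10 also belongs, 9 of 9 tested (of 10 listed) were higher in GCSF-OHT, among them Ifit1 (8.48 and 80.4, log2 difference 2.94 ± 0.11, adjusted p = 3.68e-49), Ifit3 (log2 difference 1.79 ± 0.10, adjusted p = 8.91e-35) and Isg15 (log2 difference 1.40 ± 0.083, adjusted p = 2.28e-32). The background of all genes over these time points was 9.33% higher.

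Of 12 receptor genes 10 were tested, 4 higher and 1 lower in GCSF-OHT than in IL3-OHT, against 9.33% and 15.1% of all genes. Ccr1, the receptor of Ccl3, Ccl6 and Ccl9, had 6014 ± 267 in undifferentiated cells and 3358 ± 301 at IL3-OHT 168h, 2611 ± 105.4 at GCSF 0h and 4470.3 ± 200.96 at GCSF-OHT 168h (SD, n = 3). Cxcr2, the receptor of Cxcl2, had 390.1 ± 18.3 and 479 ± 47.9 in IL3 and 308 ± 14.5 and 3398 ± 186.97 in GCSF, a rise that was larger in GCSF (log2 difference 3.17 ± 0.13, adjusted p = 1.83e-44 for the interaction). Ccr2, the receptor of the undetected Ccl2, rose from 49.3 ± 22.7 to 1667 ± 183.1 in IL3 and from 124.3 ± 19.5 to 3225 ± 503 in GCSF. Il1r2, a decoy receptor for interleukin-1, had 78.9 ± 17.1 at IL3-OHT 168h and 1617 ± 60.1 at GCSF-OHT 168h (log2 difference 2.46 ± 0.028, adjusted p = 5.11e-106 over the shared time points). The signalling receptor gene Il1r1 had 15.4 ± 4.61 and 17.6 ± 2.57. Of the Tnf receptors, Tnfrsf1b had 11128 ± 133.1 and 21412 ± 376 and Tnfrsf1a 2208 ± 73 and 3037 ± 41.2. Il6ra had 1331 ± 42.8 and 1562 ± 84.8. Cxcr3, the receptor of Cxcl10, had at most 2 reads in any library of these 4 groups.

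Transcripts that limit or process the members were also examined. All 12 genes of mRNA decay and feedback were tested, and 4 were lower and 0 higher in GCSF-OHT, against 15.1% and 9.33% of all genes. They were Dusp1, a phosphatase of MAP kinases (log2 difference -1.46 ± 0.027, adjusted p = 4.91e-83), Zfp36l1 (log2 difference -1.11 ± 0.022, adjusted p = 2.45e-79) and Zfp36 (log2 difference -0.69 ± 0.016, adjusted p = 1.38e-71), whose proteins bind AU-rich elements such as those shown above, and Zc3h12a, an RNase of inflammatory transcripts (log2 difference -0.94 ± 0.022, adjusted p = 3.86e-71). After GCSF pre-treatment 7 of these 12 were lower and 0 higher, against 20.6% and 13.0% of all genes. Of 9 genes of cytokine maturation 3 were higher in GCSF-OHT, where 9.33% of all genes were, Casp4 (log2 difference 1.39 ± 0.035, adjusted p = 3.23e-69), Gsdmd (log2 difference 1.38 ± 0.024, adjusted p = 9.41e-86) and Casp1 (log2 difference 0.59 ± 0.022, adjusted p = 3.21e-52), and Pycard, the inflammasome adaptor, was lower (log2 difference -0.73 ± 0.010, adjusted p = 1.26e-99). Of the 5 NF-kB subunit genes, Rel alone was called, and was higher in GCSF-OHT (log2 difference 0.87 ± 0.020, adjusted p = 9.23e-73). These lists were chosen with earlier results of the data known, and their counts are descriptions.

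The genes whose levels most resembled each member were taken by Pearson's r of log2 group means over 54 groups, which share a start and, within a condition, a culture. For Ccl6 they were Arg1 (r = 0.974), Bcl2a1b (0.965) and Ccl9 (0.963), and for Ccl9 they were Ccl6 (0.963), Spink5 (0.960) and Ehbp1 (0.959). Cxcl2 was most like Clec4d (0.951), Csta2 (0.945) and Sycp2 (0.928). Ccl4 was most like Thbs3 (0.925), Metrnl (0.908) and Plin2 (0.901), Tnf like Pycard (0.908), Cdc42ep2 (0.895) and Cstdc4 (0.880), and Ccl3 like Ctsd (0.892), Zfp52 (0.881) and Tcim (0.878). For Cxcl10 and Il1b no gene exceeded 0.714 and 0.738. These r take both conditions together, so that a constant shift between the conditions enters them. A high r therefore need not mean a shared time course, and r within a condition was computed only between members. Among the members, Ccl6 and Ccl9 had r = 0.96 over the 26 groups in IL3 and 0.18 over the 28 groups in GCSF. Ccl3 and Cxcl2 had 0.79 and 0.76, and Cxcl2 and Tnf had 0.15 and 0.82.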

How the data were processed

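The authors sequenced polyadenylated RNA of 165 libraries in 56 groups, determined abundances with Salmon in selective alignment mode against GRCm38, and deposited a single table of 36255 genes as normalized counts. In this signal, deposited by the authors, each gene count is divided by the DESeq2 size factor of the library. Versions and the step from transcripts to genes are not given in the sources used here. The values were 100% whole multiples of 1 number per library (tolerance 1e-06), from which reads were recovered.

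Genes with at least 5 normalized counts in at least 1 library (17439) were fitted with limma 3.58.1 in R 4.3.3 on log2(normalized count + 1), with a mean for each of the 56 groups and a variance trend, and p-values were adjusted by Benjamini and Hochberg over all of them. Fold changes are on that scale and understate those of low genes. IL3-OHT 96h and 144h entered the fit but not the 25 shared time points, the windows of time or the IL3 course. The members and all gene lists were chosen with earlier results of these data known. All members are named, with at most 5 genes of each other list, those most different between conditions among the genes called, the receptors of the members and the 3 genes most like each member. Alternatives were other pseudocounts, filters, scalings and designs, a replicate left out, edgeR 4.0.16 and DESeq2 1.42.0 on the recovered reads. The GCSF pre-treatment comparison alone was first run on simulated data, with changes placed only in genes well above the filter. Low genes and the other comparisons were not covered by it. The authors call the replicates of a time point biological and collected 4 from wells of 1 plate, of which 3 (2 at 3 GCSF-OHT time points) are analysed here. More on their origin is not given in the sources used here, so that p-values measure the spread between these samples, which may be technical. No sample or column was left out. Values of some listed genes are not reported here.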

Additional observations from a re-analysis of the deposited data

Results flagged for a closer look

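The change after OHT, each condition against its own start, differed between GCSF and IL3 at 168h for all 8 tested members, against 25.7% of all genes tested. The interaction (GCSF minus IL3, log2 scale, limma) was 1.77 ± 0.13 for Ccl3, 1.30 ± 0.19 for Ccl4, 2.15 ± 0.25 for Cxcl2 and 0.84 ± 0.15 for Tnf, and negative for Ccl6 at -1.25 ± 0.099 and Ccl9 at -1.58 ± 0.13. Among these 6 the largest adjusted p was 4.93e-07, for Tnf. Cxcl10 with 1.29 (adjusted p = 0.0445) was lost without any 1 of the 3 replicates, with a pseudocount of 0.5 (adjusted p = 0.0533) and with no filter (0.0682). Il1b with 2.27 (adjusted p = 0.0299) was lost without replicate 2 or 3, with a pseudocount of 5 (adjusted p = 0.0540), in a fit of only the groups compared (0.0506), with edgeR (0.0884) and with DESeq2 (0.0582), so that edgeR and DESeq2 called 7 of the 8.

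Over 1h to 8h the same interaction was called for 4 of 8 members (9.97% of all genes), with 1.70 for Ccl3, 1.83 for Ccl4, 1.14 for Cxcl2 and -0.71 for Tnf. Over 12h to 48h it was called for 3 (25.5%), with 1.62 for Ccl3, 1.79 for Ccl4 and 1.55 for Cxcl2. Over 56h to 88h it was called for 5 (24.3%), with 1.43 for Ccl3, 1.10 for Ccl4, 1.67 for Cxcl2, -1.67 for Ccl6 and -1.35 for Ccl9. Over 104h to 168h it was called for all 8 (27.1%), with 1.71 for Ccl3, 1.23 for Ccl4, 2.34 for Cxcl2, 1.49 for Cxcl10, 0.73 for Tnf, -1.88 for Ccl6, -2.03 for Ccl9 and 1.92 for Il1b, the last not without replicate 3 (adjusted p = 0.154). The windows and 168h share their start libraries.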

How the results depend on the processing

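Every count of called members under each alternative computed stayed within 1.5 times the value reported. With 1 replicate left out, the members called were 6 to 7 after GCSF pre-treatment, 5 to 6 at IL3-OHT 168h, 4 to 5 at GCSF-OHT 168h against GCSF 0h and 6 to 6 against undifferentiated cells, 6 to 7 between the conditions, 6 to 7 for the interaction and 8 to 8 over each course, and the calls were 75 to 81 over the windows (83 in all) and 46 to 54 between consecutive time points (60 in all). The calls between consecutive time points were 56 with edgeR, 54 with DESeq2 and 42 in fits of only the groups compared, and 48 without the libraries of IL3-OHT 96h and 144h, where 4 of 54 steps could not be computed. The 1 value that changed sign was Ccl3 at IL3-OHT 168h against undifferentiated cells, -0.024 without replicate 3 (adjusted p = 0.888) against 0.04, called in neither, and -0.024 to 0.13 with 1 replicate left out. The replicate block changed none of these counts (60 between consecutive time points with it), and the numbers gave no pairing, since libraries with the same number did not deviate together (median r -8.2e-05 over 4458 pairs, 9.31% of them over 0.1, against 9.33% of pairs with different numbers). Calls of single members were lost in 57 cases for Il1b, 49 for Cxcl10, 20 for Cxcl2 and 0 for Ccl6. After GCSF pre-treatment edgeR called 5657 and DESeq2 5420 of all genes, against 5864 with limma. Depth limits Ccl2, Il6 and most values of Il1b, which lie at or near 3 reads.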
